A study of Mus musculus with 16 samples.

Results

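The genes of the splicing machinery were taken from the all-genes table as every row whose symbol starts with Srsf, Sfrs, Hnrnp, Sf3a, Sf3b, Prpf or Snrp, or with Lsm and a digit. This gave 78 of 25905 genes. They fell into 15 SR protein genes (Srsf and Sfrs), 18 hnRNP genes (Hnrnp), 8 genes of the SF3A and SF3B complexes, 13 pre-mRNA processing factor genes (Prpf), 12 snRNP protein genes (Snrp) and 12 Sm-like genes (Lsm). The last 4 classes, 45 genes, are named the core below. This is a grouping by symbol, and some of its Lsm genes, such as Lsm14a, encode proteins that are not of the spliceosome.

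RNA-seq was performed on the right-eye retinas of 16 male, wild type C57BL/6 mice labelled as 10 weeks old, the age at which the Spaceflight mice were launched, so that they were some weeks older when the eyes were taken. The Spaceflight group held 8 mice that lived in rodent habitats aboard the International Space Station and returned alive, and the Ground control group held 8 mice kept on Earth under matched habitat conditions. The counts of each library stand under laboratory codes that match no label. Those columns were not used here, and values per library, the depth of each library and the difference between Spaceflight and Ground control are not analysed here. What is described is the authors' mean normalised count of each gene over all 16 libraries, which has no spread between mice attached to it.

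Pre-mRNA splicing removes introns and joins exons. The spliceosome that does this is built from small nuclear RNAs, each carrying a ring of Sm proteins (Snrp genes) or of Sm-like proteins (Lsm genes), together with SF3A and SF3B, which help the U2 particle settle on the branch point, and Prpf proteins, many of which belong to the U4/U6.U5 particle. SR proteins bind exons through RNA recognition motifs and usually favour the use of an exon through a tail of arginine-serine repeats. hnRNPs coat nascent transcripts, and several of them favour exon skipping. In the retina, inherited defects of general splicing factors, among them PRPF3, PRPF4, PRPF6, PRPF8 and PRPF31, cause retinitis pigmentosa, a degeneration that begins in rod photoreceptors.

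The libraries carried the genes of the labelled tissue. Of 15 rod markers, Gnat1 (rod transducin) had a mean normalised count of 154477 and Prph2 (a disc rim protein) of 29706, and the 13 with a single listed transcript were all at 3390 or above. The other 2, with 2 listed transcripts each, were far lower, with Nrl, the transcription factor that specifies rods, at 88.9 and Pdc (phosducin) at 0.225, under the medians of the pigment epithelium and lens lists. Markers of neighbouring tissues had medians of 102 over 9 markers of the pigment epithelium and choroid, 101 over 10 of the lens, 5.85 over 5 of the corneal epithelium and 0.800 over 4 of blood. Single markers ran from 2.72 to 540 (Ttr), from 8.74 to 898 (Cryaa), from 0 to 11.9 and from 0 to 10.7 in the same order. Alas2, the blood marker at 0, had 2 listed transcripts. Whether RNA from those tissues moved the levels of the splicing genes was not tested.

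The 78 splicing genes were high as a set beside all genes but very uneven as rows of the table. As 78 of 25905 genes, they held 1.02% of the summed mean normalised counts of all genes. Of the 25905 genes, 6238 were listed at 0, and no comparison was made with expressed genes only. The levels of the 78 ran from 8381 for Hnrnpu, which encodes a nuclear scaffold protein that binds RNA and DNA, down to Hnrnpa3 and Hnrnpd, which were listed at 0. The uneven levels went together with the number of transcripts the counting used for a gene. The table of counts has 1 line for each RefSeq transcript, 31616 lines in all, and a gene with several transcripts has several lines. In the text below a listed transcript is such a line.

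Of the 78 genes, 60 had 1 listed transcript and 18 had 2 to 7. The 60 had a median mean normalised count of 637, and the lowest of them, Lsm5, a member of the Lsm ring on U6 RNA, was at 33.9. The 18 had a median of 22.3. All 6 genes under 10 were among the 18, and they were Hnrnpa3, Hnrnpd, Prpf31 (0.0626), Lsm10 (0.259), Hnrnpc (0.362) and Snrpn (8.43). Over all genes of the table the same split was present: the median was 12.9 for the 22086 genes with 1 listed transcript, and 0.652, 1.58 and 0.736 for genes with 2, with 3 and with at least 4. Of all genes, 48.3% of those with 1 listed transcript were under 10, against 75.4% of the 3794 with several.

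**Figure D1:**
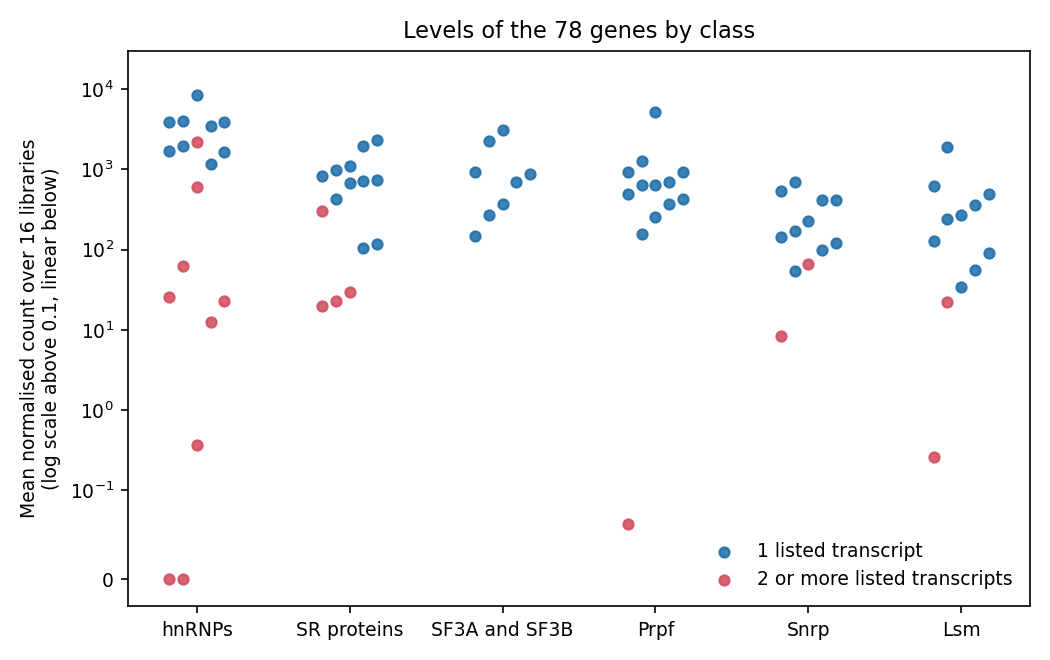
Each point is 1 of the 78 genes, placed by class along the horizontal axis and by the authors' mean normalised count over 16 libraries along the vertical axis, which is logarithmic above 0.1 and linear below. The 60 genes with 1 listed transcript (blue) lie at 33.9 or above, and the 6 genes under 10, with 2 of them at 0, all have 2 or more (red).

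The classes were touched to different degrees. Several transcripts were listed for 9 of 18 hnRNP genes (50%), 4 of 15 SR protein genes (26.7%) and 5 of 45 core genes (11.1%), beside 14.7% of all genes. No SF3A or SF3B gene had more than 1. Within the hnRNPs the median mean normalised count was 3488 for the 9 genes with 1 listed transcript and 22.7 for the 9 with several. Within the SR proteins these medians were 734 and 26.3.

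The 18 genes differed in how much of their coding sequence was coding in a single listed transcript. Whether such a stretch is an alternative exon, an alternative end of an exon or a change of the coding start or end was not examined. The coding exons of the listed transcripts were laid over each other on the GRCm38 mouse assembly (GENCODE M21 structures). Each base was marked by how many listed transcripts hold it as coding sequence. A base that is coding in 1 listed transcript can lie in an untranslated part of another, which was not checked. The marks therefore do not show which bases are absent from the other transcripts. Stretches of 4 hnRNP genes are printed first, because 2 of these genes have a long stretch held by 1 listed transcript and 2 have none. Capitals mark bases that are coding in 1 listed transcript only, and lower case marks bases coding in several but not all. The stretch of Hnrnpa2b1 is at chr6:51464428-51464547 on the minus strand, that of Hnrnpab at chr11:51601750-51601890 on the minus strand, and that of Hnrnpa3 at chr2:75659324-75659389 on the plus strand. Those of Hnrnpd are at chr5:99976534-99976590 and chr5:99963731-99963877 on the minus strand.
Hnrnpa2b1: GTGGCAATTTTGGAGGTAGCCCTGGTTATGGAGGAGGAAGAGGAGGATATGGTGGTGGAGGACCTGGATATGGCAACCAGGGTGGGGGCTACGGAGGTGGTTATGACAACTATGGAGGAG
Hnrnpab: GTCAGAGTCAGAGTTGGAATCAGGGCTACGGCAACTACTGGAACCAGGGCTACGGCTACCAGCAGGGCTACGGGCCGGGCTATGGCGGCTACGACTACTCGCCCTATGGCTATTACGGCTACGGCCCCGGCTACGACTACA
Hnrnpa3: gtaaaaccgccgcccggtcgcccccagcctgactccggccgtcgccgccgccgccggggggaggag
Hnrnpd upstream stretch: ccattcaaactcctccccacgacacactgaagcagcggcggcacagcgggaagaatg
Hnrnpd downstream stretch: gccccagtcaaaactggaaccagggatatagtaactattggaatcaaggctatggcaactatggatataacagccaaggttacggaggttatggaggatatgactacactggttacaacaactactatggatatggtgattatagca

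Hnrnpa1, which encodes an abundant nuclear protein that shuttles to the cytoplasm, had 2 listed transcripts with 960 common coding bases and a mean normalised count of 62.8. In Hnrnpa2b1, whose protein packages and transports mRNA, the stretch is 120 bases long, 903 bases were common, and the mean normalised count was 595. In Hnrnpab, which encodes a protein with paired RNA recognition motifs, the stretch is 141 bases long, 855 bases were common, and the mean normalised count was 22.7. The A2B1 and AB stretches lie in the part of each gene that encodes the glycine-rich tail.

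Hnrnpa3 and Hnrnpd had no coding base of a single transcript. Hnrnpa3 has 3 listed transcripts, which share 1071 coding bases, and its 66-base stretch is held by 2 of them. Hnrnpd encodes AUF1, a protein that binds AU-rich elements of mRNAs and acts on their decay. Its 4 listed transcripts are the combinations of the 57-base and the 147-base stretch, each held by 2 of the 4, on 861 common bases. Both genes were listed at 0 in the authors' mean, so no level can be given for them.

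A second group of stretches is printed for genes of other roles: Hnrnpc, whose protein binds uridine tracts in nascent RNA, Prpf31, which joins the U4/U6 to the U5 particle, and Srsf1, the founding SR protein. The stretch of Hnrnpc is at chr14:52081789-52081827 on the minus strand, that of Prpf31 at chr7:3638631-3638648 on the plus strand, and the pair of Srsf1 at chr11:88049216-88049266 and chr11:88049412-88049603 on the plus strand. All are coding in 1 listed transcript only.
Hnrnpc: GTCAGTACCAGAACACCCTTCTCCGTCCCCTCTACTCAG
Prpf31: GTGGGCTACGAACTAAAG
Srsf1 upstream stretch: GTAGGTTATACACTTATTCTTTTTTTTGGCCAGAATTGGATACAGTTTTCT
Srsf1 downstream stretch: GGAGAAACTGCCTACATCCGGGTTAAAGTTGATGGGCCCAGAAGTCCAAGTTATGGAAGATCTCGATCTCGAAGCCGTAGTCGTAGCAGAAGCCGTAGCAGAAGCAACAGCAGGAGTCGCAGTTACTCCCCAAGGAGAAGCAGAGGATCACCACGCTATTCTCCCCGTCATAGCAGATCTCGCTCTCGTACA

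The stretch of Hnrnpc has 39 bases and that of Prpf31 has 18, both shorter than the 75-base reads of the study. Their mean normalised counts were 0.362 and 0.0626. Hnrnpc has 5 listed transcripts with 876 common coding bases, and Prpf31 has 2 with 1479. Srsf1 has 2 listed transcripts with 552 common coding bases. The longer coding sequence ends in the 192-base stretch, which encodes the arginine-serine tail, and the shorter one ends in the 51-base stretch instead. The mean normalised count of Srsf1 was 19.7.

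Set side by side, the 9 genes with an own stretch of at least 75 coding bases had mean normalised counts from 12.4 to 2205, with a median of 22.7. The pair with a shorter own stretch was at 0.0626 and 0.362. The 7 with no own coding base ranged from 0 to 65.5, with a median of 8.43, so this group overlapped the first. The highest level in the first group was that of Hnrnpul1, a DNA damage response protein of the hnRNP U family, with 1593 own coding bases and 1002 common ones. Hnrnpa2b1 (595) came next, and then Srsf10, an SR protein that acts as a repressor when dephosphorylated, with 353 own coding bases and a mean normalised count of 306. The highest levels among genes with no own coding base were those of Snrpa, a protein of the U1 particle (65.5), Srsf5 (30.0) and Hnrnpf (25.6, with 7 listed transcripts of the same 1245 coding bases). Their listed transcripts differ outside the coding sequence, and those parts were not compared. The remaining members of the 18 were Srsf11 (22.5), Lsm2 (22.0) and Hnrnpm (12.4), with own stretches of 90, 111 and 117 bases.

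**Figure D2:**
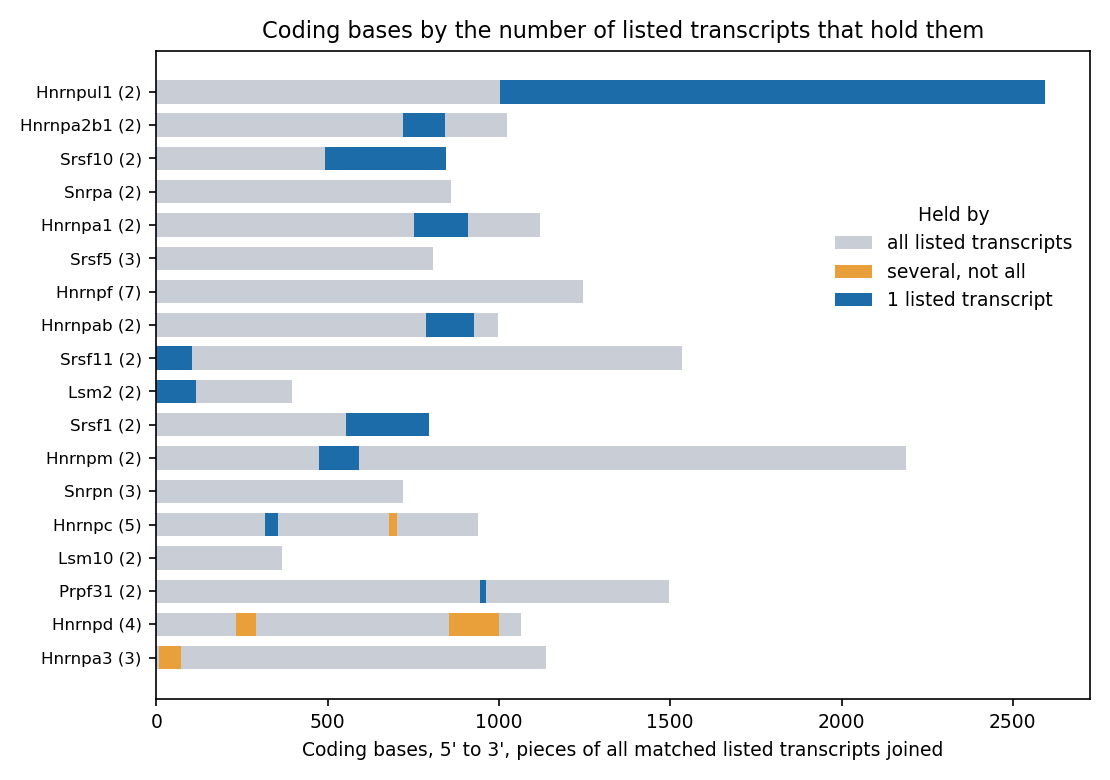
Bars show the coding bases of the 18 genes with several listed transcripts, 5′ to 3′ with introns left out, and the number after each symbol is how many listed transcripts were matched. Grey bases are coding in all of them, orange in several and blue in 1, and Lsm10, Snrpn, Hnrnpf, Srsf5 and Snrpa are grey throughout.

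**Figure D3:**
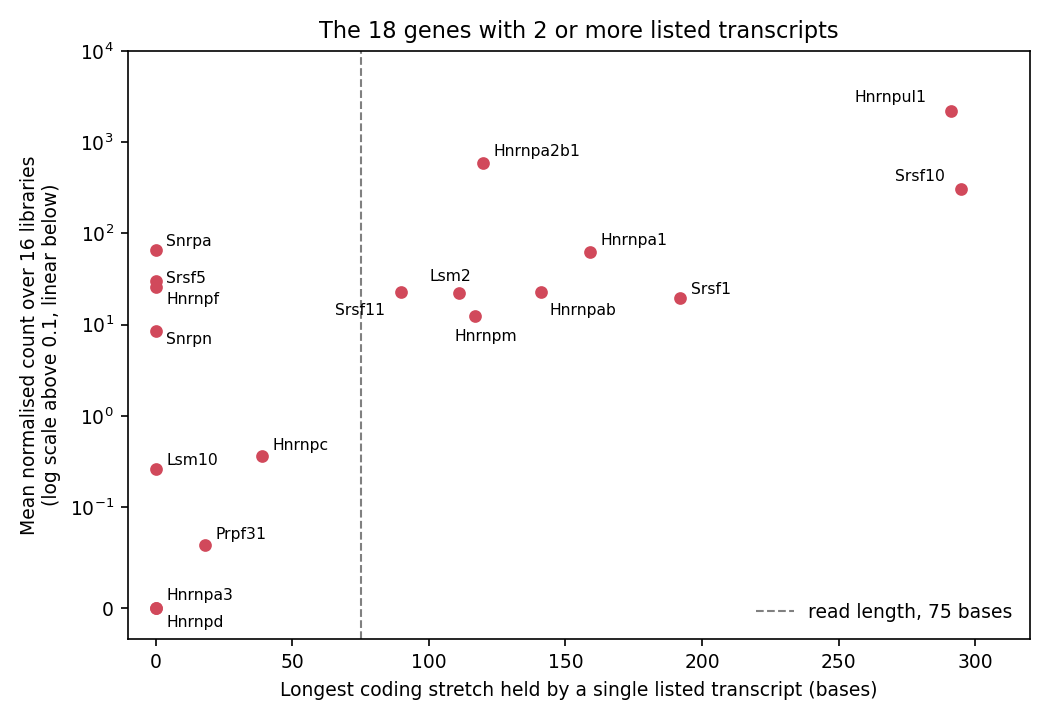
The horizontal axis gives the longest coding stretch held by a single listed transcript in bases, and the vertical axis the authors' mean normalised count (logarithmic above 0.1, linear below), for the 18 genes with several listed transcripts. Such a stretch can be untranslated sequence of another listed transcript, which was not checked. The 9 genes right of the 75-base read length lie between 12.4 and 2205, Prpf31 and Hnrnpc left of it lie under 1, and the 7 genes at 0 bases spread from 0 to 65.5.

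A read that falls on bases shared by several lines of a count table can be set aside as ambiguous, divided or counted more than once, and the table does carry a line for ambiguous reads. The counting mode, and how the lines of a gene were joined into its row of the all-genes table, are not given in the sources used here. Whether shared bases set the levels of the 18 genes was not tested, and their low values are not given here as low expression. Of the third listed transcript of Srsf11 no structure was matched.

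The levels of the 60 genes with 1 listed transcript can be set beside each other once divided by transcript length. On this scale, the mean normalised count per kb of the longest annotated transcript, hnRNP genes were highest with a median of 843 over 9 genes. SR protein genes followed with 233 over 11 genes, then SF3A and SF3B with 197 over 8, Prpf with 144 over 12, Snrp with 123 over 10 and Lsm with 92.3 over 10. The core as a whole had a median of 141 over 40 genes. All genes with 1 listed transcript had a median of 10.2. The ranges of every pair of classes overlapped, and the order describes these rows without a test. For 11 of the 60 genes the level per kb was over 1.5 times higher on the length of the listed transcript, among them Srsf3 (372), Snrpa1 (179), Prpf38a (103) and Prpf19 (429). With the 18 genes included, the medians per kb were 290, 168, 197, 141, 95.4 and 58.0 in the same order of classes, so that the SR proteins then fell behind SF3A and SF3B.

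**Figure D4:**
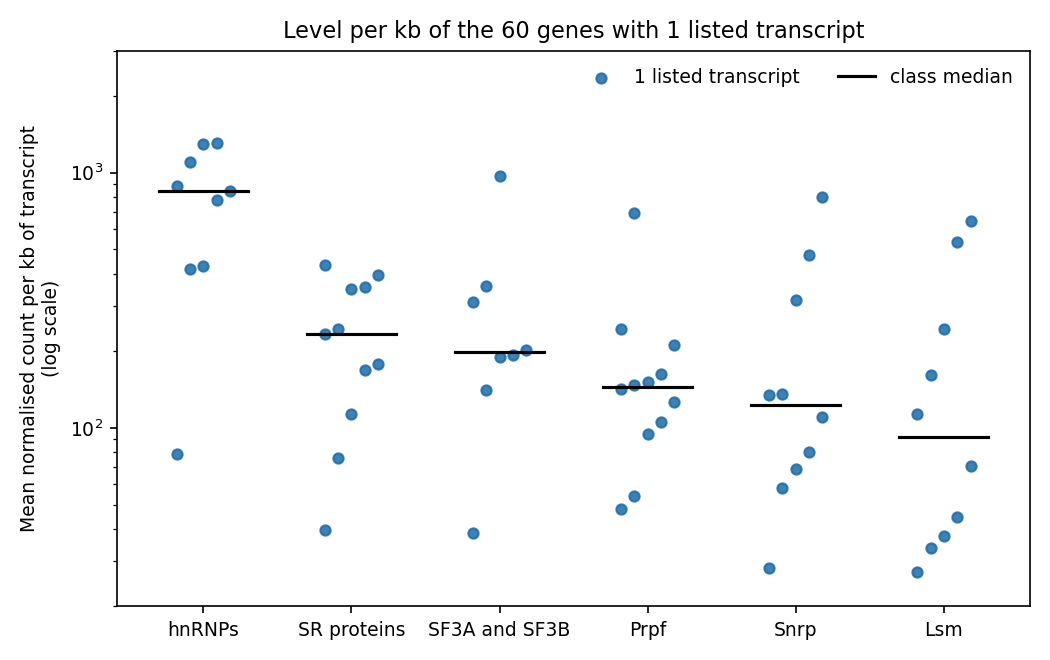
Each point is 1 of the 60 genes with 1 listed transcript, by class, with the authors' mean normalised count per kb of the longest annotated transcript on a logarithmic vertical axis, and black bars are class medians. The hnRNP median of 843 stands above the medians of the other classes, which lie between 92.3 and 233, while single genes of every class overlap.

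Among the hnRNPs, Hnrnpl, which binds CA repeats, had 1302 per kb, Hnrnpk, which binds cytosine-rich sequence, had 1289 and Hnrnpu had 1097. The Hnrnph genes, whose proteins bind guanine tracts, ran from 417 per kb for Hnrnph2 to 882 for Hnrnph3, with Hnrnph1 at 843. On the length of the listed transcript Hnrnph1 was highest of them at 1734 and Hnrnph2 lowest at 703. The lowest of the 9 was Hnrnpr at 78.9 per kb, on a reference transcript of 21452 bases, although its mean normalised count was 1692. Hnrnpul2 (783 per kb) and Hnrnpa0 (431 per kb) completed the class. The lowest mean normalised count among these 9 genes, 1156 for Hnrnpa0, was still above 95.4% of all genes.

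Among the 15 rows named Srsf or Sfrs, 5 belong by their transcript to genes that the reference calls by other names: Sfrs18 is Pnisr, Srsf2ip is Scaf11, Srsf15 is Scaf4, the row Srsf12 is Srek1, and the row Srsf13b is the gene now named Srsf12. These are mostly SR-related proteins and not classical SR proteins. Per kb of the longest annotated transcript, they held the highest levels of the class, 435 for Sfrs18 and 398 for Srsf2ip. They also held its lowest with 1 listed transcript, 39.6 for Srsf13b. Of the 10 other SR genes, 6 had 1 listed transcript. Srsf2, which favours exon inclusion and is mutated in myeloid disease, had 355 per kb and Srsf4 had 351. On the length of the listed transcript Srsf4 was highest in the class at 482, above Sfrs18 at 435. Srsf3, the smallest SR protein and a factor in mRNA export, had 243, Srsf6 had 233, Srsf7 had 179 and Srsf9 had 76.0. The 4 with several listed transcripts were Srsf10 at 81.4 per kb, Srsf5 at 8.60, Srsf11 at 7.26 and Srsf1 at 3.67.

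SF3A and SF3B differed in how even their parts were. The 3 SF3A genes lay within a 1.63-fold range, with Sf3a1 at 190 per kb, Sf3a3 at 202 and Sf3a2 at 310. The 5 SF3B genes spanned a 25.0-fold range per kb. Sf3b2, which contacts pre-mRNA near the branch point, was highest at 970, and Sf3b1, the large scaffold that is mutated in uveal melanoma, followed at 358. Sf3b3 was at 193 and Sf3b4 at 140. Sf3b5, a small subunit, was lowest at 38.8 per kb, with 258 coding bases in a transcript of 3841.

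Prpf8, the protein at the heart of the spliceosome's active site, was the highest Prpf gene on both scales, with a mean normalised count of 5184 and 697 per kb. Prpf38b (243 per kb) and Prpf6 (210 per kb), whose protein bridges the U5 and U4/U6 particles, came next per kb of the longest annotated transcript. On the length of the listed transcript Prpf19 came second at 429, above Prpf38b at 307. Of the 5 retinitis pigmentosa genes in this class, Prpf3, a U4/U6 protein, had 126 per kb with a mean normalised count of 369, and Prpf4, its partner, had 48.2 with 252. The 4 with 1 listed transcript thus spanned a 14.5-fold range. Prpf31, the last of the 5, stood at 0.0199 per kb, and its 2 listed transcripts share 98.8% of their joint coding bases. Prpf38a, a factor of spliceosome activation, had 53.9 per kb. Prpf40b had 105, Prpf18 141, Prpf39 147, Prpf19 152 and Prpf4b 162.

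The Sm ring holds a single copy of each of its proteins, and the levels of the 7 mRNAs spanned an 11.6-fold range per kb. Snrpd1 was highest at 805, followed by Snrpf at 475 and Snrpb at 317. Snrpg was at 136, Snrpd3 at 135, Snrpe at 80.4 and Snrpd2 at 69.2. Some coding runs of read length in these genes also occur in transcripts of other genes, as described further below. The share of such runs was 13.1% for Snrpd1, 42.5% for Snrpd2, 51.0% for Snrpe, 78.8% for Snrpf and 100% for Snrpg. Snrpb and Snrpd3 had none. Whether shared runs moved the levels of the Sm genes, and with them the range, was not tested. Among proteins specific to 1 particle, the U2 genes Snrpa1 and Snrpb2 had 110 and 58.0 per kb. Snrpc, which encodes another protein of the U1 particle, had 28.1 per kb on a longest annotated transcript of 6107 bases and 226 per kb on its listed transcript of 758 bases. Snrpn, an imprinted gene expressed in neurons, had 4.06 per kb, with 3 listed transcripts that share all 720 coding bases.

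Among the Lsm genes the highest was Lsm14a at 644 per kb, which encodes a protein of cytoplasmic P-bodies and not of the spliceosome. Lsm14b, its paralogue, was at 245. Of the Lsm ring, Lsm4 had 535 per kb, Lsm7 had 113, Lsm6 had 71.1, Lsm5 had 44.8 and Lsm3 had 27.1, a 19.7-fold range. On the length of the listed transcript the range was 7.79-fold, with Lsm4 at 535, Lsm7 at 274, Lsm6 at 128, Lsm3 at 89.2 and Lsm5 lowest at 68.7. Lsm1, which replaces another subunit in the cytoplasmic ring for mRNA decay, had 33.7. The proteins of the U7 particle, which trims histone mRNAs, were Lsm11 at 37.5 per kb and Lsm10 at 0.275. Lsm10 has 2 listed transcripts with the same 366 coding bases, and Lsm2, with 2, stood at 13.9 per kb. Lsm2 was not counted in the ranges of the ring. Of the genes in those ranges, the share of runs found in other genes was 100% for Lsm7, 78.4% for Lsm5 and 22.3% for Lsm6. Lsm3 and Lsm4 had none. Whether shared runs moved the ranges of the ring was not tested.

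Some coding stretches of these genes also occur, as the same or the reverse complement sequence, in transcripts of other genes. A read that lies within such a stretch cannot be assigned by its sequence alone. In stranded libraries, a match on the opposite strand can still be told apart by strand. How many matches were of that kind was not counted. Every run of 75 coding bases of each gene was looked up, on both strands, in the transcripts of all other annotated genes. Genes that overlap at the same locus were not left out. At least 1% of runs were found in another gene for 35 of the 78 genes, and none for 41. The same count over all genes was not made, so this is not given as particular to splicing genes. For Lsm7 and Snrpg the share was 100%, for Hnrnpa3 97.6% with 38 other genes involved, 36 of them pseudogenes, and for Hnrnpf 91.9%. Srsf3 had 82.8%, Snrpf 78.8%, Lsm5 78.4% and Hnrnpa1 78.0%, the last with 13 pseudogenes among 14 genes. The levels of genes with such high shares are uncertain. Hnrnpk, among the highest genes, shared 63.7%. Shared runs were absent from Hnrnpu, Hnrnph1, Prpf8 and Sf3b1.

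The other splicing genes of the retina showed the same split by listed transcripts. Of 128 genes in 5 lists of kinases, SR-related proteins, hnRNPs and core proteins under other names, and neural or retinal regulators, 33 had several listed transcripts and 18 were under 10, and 15 of the 18 had several. The median mean normalised count was 597 for the 95 with 1 listed transcript and 15.8 for the 33.

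Of 9 kinases and import factors of SR proteins, Srpk2 had 297 per kb, Tnpo3, the import receptor, 188 and Clk3 116. Clk2 was listed at 0 with 2 listed transcripts, and Srpk3, a muscle kinase with 1, had a mean normalised count of 6.75. Of 20 SR-related genes found, Srrm2, a scaffold of nuclear speckles, had 1026 per kb, Rbm39 735 and Luc7l3 434. Srrm1 was listed at 0, and Acin1 (0.241) and U2af1 (4.17), which encodes the subunit that reads the 3′ splice site, had 6 and 2 listed transcripts.

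Of 16 hnRNPs under other names, Pcbp3 had 1686 per kb, Pcbp4 1667 and Ewsr1 1193. Ptbp1, the polypyrimidine tract binding protein that neurons replace with Ptbp2, had a mean normalised count of 3.43, Raly of 2.84 and Pcbp2 of 1.25, with 2, 4 and 4 listed transcripts. Ptbp2, with 1, had 952. These paralogues also differ in the number of listed transcripts, and why their levels differ was not tested. Of 59 genes listed as core genes under other names, Cwc15 had 604 per kb and Htatsf1 500. Lsmd1, also on this list, had 481 and is not given here as a spliceosome protein. Eftud2, the U5 GTPase, and Gemin5, which delivers snRNAs to the SMN complex, were listed at 0, Puf60 was at 0.890 and Slu7 at 2.41, with 2 to 4 listed transcripts each.

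Of 26 neural and retinal splicing regulators, Khdrbs3 had 1130 per kb, Msi2 1053 and Msi1 901. The Musashi proteins Msi1 and Msi2 are known to promote photoreceptor-specific exons. Celf1 (4.69), Celf2 (0.473), Mbnl2 (1.30) and Elavl4 (9.80) were under 10 with 2, 8, 2 and 4 listed transcripts. Mbnl3 (5.56) and the epithelial regulator Esrp2 (1.24) were under 10 with 1.

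RefSeq promoter sequences of GRCm38.p6, each from shortly before to shortly after a gene's start, were matched for 67 of the 78 genes. A gene with several promoters was given their mean GC content and mean CpG number. The median GC content of the 67 was 60.7%, beside 56.3% over 17492 protein-coding genes, and their median number of CpG dinucleotides was 25, beside 13. Of the 67, 64 had more than 13, and the 3 that did not were Prpf19 (8), Snrpa1 (7) and Snrpn (4). SR protein promoters were highest, with a median GC content of 69.0% and 35 CpG dinucleotides over 14 genes. Lsm promoters had 65.3%, hnRNP promoters 63.3%, SF3A and SF3B promoters 60.0%, Prpf promoters 58.3% and Snrp promoters 56.3%, the last at the median of protein-coding genes. No test was run on these medians. The letters TATAAA, searched on both strands, stood in 7 of the 67 (10.4%) and in 14.8% of protein-coding genes.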

How the data were processed

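Stranded libraries were made from total RNA of 16 retinas and sequenced as single 75-base reads. Adapters were removed by the authors with Trimmomatic, alignment was done with TopHat2 on an NCBI mouse build older than GRCm38, and transcripts were counted with HTSeq. Normalisation and the authors' own comparison used DESeq2 (version 1.22.2 in R 3.5.1, per the submitters' processing notes). The deposited signal value used here is the authors' mean normalised count of each gene over all libraries. The authors' fold-changes, standard errors, test statistics and p-values of Spaceflight against Ground control, and their table of genes past a threshold, were not used. The 2 tables of counts hold 16 columns each, 32 in all, under codes that match no sample label, and no column was used. The planned edgeR comparison could not be made without labels, and the depth and precision of each library are not analysed here. Since no test was run, no p-value is given.

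From these tables the symbol and accession of each listed transcript were read. Of 31616 listed transcripts, 24385 (77.1%) were matched to GENCODE M21 through its RefSeq table. Levels per kb used the longest annotated transcript of the gene, which 22822 of 25905 genes had. In 25 rows the symbol had been turned into a date, and these rows were left out of the counts by listed transcripts. Coding segments were computed in Python 3.11.15 with pandas 2.3.3 and numpy 2.4.6, and untranslated ends were left out because the annotation counted on was another one. The code was tested on simulated transcript structures that kept or dropped whole, separated exons. Partly overlapping exons were not simulated, so that test did not cover stretches at the ends of exons. Genes were named by class: the 3 highest and 2 lowest per kb, the highest and lowest mean, each under 10, and 5 Prpf genes of retinitis pigmentosa, and of each list the 3 highest per kb and those under 10. Genes named beyond this rule, and those named for runs shared with other genes, were chosen after their values were seen. The members and lists were chosen with earlier results of these data known. A few items that this rule names are not reported here.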

Additional observations from a re-analysis of the deposited data

How the results depend on the processing

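The medians per kb of the 6 classes were recomputed under 8 settings, of which the last 4 below were chosen after seeing the data. Values are given in the order SR, hnRNP, SF3A and SF3B, Prpf, Snrp and Lsm, and were 168, 290, 197, 141, 95.4 and 58.0 as reported. On the shortest transcript of each gene they were 1156, 1127, 1448, 1169, 439 and 278, which put the hnRNPs at rank 4. Without division by length the median counts were 675, 1409, 780, 632, 158 and 185. With genes at a mean of at least 10, hnRNP was 431, Prpf 144, Snrp 110 and Lsm 71.1. Without Hnrnpul1 and Hnrnpul2, left out for the ending of their symbols, the hnRNP median was 121, at rank 4. With 1 listed transcript only, the SR median was 233, hnRNP 843, Prpf 144, Snrp 123 and Lsm 92.3. On the length of the listed transcript, SR was 172, hnRNP 395, Snrp 135 and Lsm 109. Without the 5 rows that carry another symbol in the reference, SR was 130. With under 1% of 75-base runs found in other genes, fewer genes were left. Then hnRNP was 507 over 6 genes, SF3A and SF3B 193 over 5, Prpf 144 over 12, Snrp 135 over 3 and Lsm 35.6 over 8. The other medians were the same to the digits computed. The hnRNPs ranked first in the other settings, and the 18 hnRNP genes fell into a high and a low group with few between, so that their median moved with which genes were counted.

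No paired analysis was possible because the columns of counts carry no replicate number. The fits planned on those columns (another tool, another normalisation, no filter, a stricter threshold, leaving out each library, the replicate block) were not run, nor was the share of arginine-serine pairs in each protein, for which no protein sequences were at hand. Since the columns of counts were not used here, no spread between libraries and no limit of detection is given for the levels.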

Other observations

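The split by listed transcripts also ran through the genes that define retinal cell types. Of 51 markers of rods, cones, Müller glia, bipolar cells and inner retinal neurons, 8 had several listed transcripts, and 6 of those 8 were under 10, while none of the 43 with 1 listed transcript was (the lowest was Lhx1 at 47.7). The 6 were Pde6c, the cone phosphodiesterase (0.0699), Pdc, the phosducin of photoreceptors (0.225), Rlbp1, the retinaldehyde-binding protein of Müller glia (1.39), Gngt2, a cone transducin subunit (4.02), Rbpms, a marker of ganglion cells (5.53), and Pcp2, a marker of bipolar cells (8.60). The remaining pair was Nrl, the transcription factor that specifies rods, at 88.9, and Trpm1, the channel of ON bipolar cells, at 2866. Nr2e3, a rod transcription factor with 1 listed transcript, was at 3390. Why these levels differ was not tested.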
